A study of Mus musculus with 12 samples.

Results

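The 10 genes Mpo, Elane, Prtn3, Ctsg, Camp, Ltf, S100a8, S100a9, Cebpe and Irf8 mark neutrophils and monocytes and their precursors, and were examined out of 21738 protein-coding genes. Their peaks were collected by position in each of 12 peak lists. The promoter was the window within 2 kb of the canonical transcription start site (TSS), and the rest of the gene counted as its body. Of the 10 genes, 7 had a promoter peak in at least 1 library, Mpo had a gene body peak in 1 library, and Elane and S100a9 had none in any library.

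The libraries came from mouse c-Kit+ bone marrow cells, labelled haematopoietic stem and progenitor cells, into which retroviral BAP1 was introduced together with a second retrovirus. That second virus carried an ASXL1 form or, in the controls, nothing, so that every group, vector included, carried added BAP1. The 1-590 set for H2AK119ub CUT&RUN held ASXL1 (1-590) 25RA, ASXL1 (1-590) 10RA, ASXL1 (1-590) and a vector control. The labels call 10RA condensation-impaired and 25RA condensation-defective. The 1-1067 set held the charge-neutralized forms ASXL1 (1-1067) 36EQ and ASXL1 (1-1067) 34DN, then ASXL1 (1-1067) and a vector control of its own. ChIP-seq of BAP1 and of ASXL1 was done with 10RA and with 1-590, on the HA-tagged protein per the labels' protocols, while the labels' descriptions name antibodies to BAP1 and ASXL1 themselves. The labels give the genotype as mock for all samples. Mouse strain and age are not given in the sources used here. Each group had 1 library, so no difference between groups has a replicate check, and counts below describe these libraries. In 3 lists (25RA, 36EQ and 34DN) the code written in each peak's name differs from the sample title, and the title was followed.

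Neutrophils are built in steps from granulocyte-monocyte progenitors. Early precursors fill primary (azurophil) granules with myeloperoxidase (Mpo) and the serine proteases neutrophil elastase (Elane), proteinase 3 (Prtn3) and cathepsin G (Ctsg). Later stages fill secondary granules with the cathelicidin antimicrobial peptide (Camp) and lactoferrin (Ltf), and the cytosol with the calprotectin subunits S100a8 and S100a9. C/EBP epsilon (Cebpe) drives the secondary granule stage, and IRF8 (Irf8) directs progenitors towards monocytes and dendritic cells. H2AK119ub is histone H2A with ubiquitin on its lysine, a mark laid down by Polycomb repressive complex 1 at repressed genes and removed by the BAP1 deubiquitinase with its cofactor ASXL1. It lies mostly at CpG-rich promoters.

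Depth differed between the lists. The H2AK119ub lists of the 1-590 set held 20124 to 33863 peaks, on a genome background of 1.86 fragments per base in 25RA, 1.72 in 10RA, 2.06 in 1-590 and 0.908 in vector. Those of the 1-1067 set held 5307 to 6310 peaks on backgrounds of 2.17 to 2.92. The ChIP lists held 3572 to 8370 peaks on backgrounds of 3.04 to 5.46. Backgrounds and summit pileups, both in fragments, were solved from each peak's fold and p. Fold is the summit pileup plus 1 over the local background plus 1 as the authors' peak caller gave it, and q is that caller's false discovery rate. Peaks with a q no higher than 5% made up 86.0% to 96.0% of the H2AK119ub lists of the 1-590 set, 22.8% to 32.7% of those of the 1-1067 set and 10.6% to 16.9% of the ChIP lists.

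H2AK119ub was listed at few of the 10 promoters. In the 1-590 set a promoter peak stood at 3 members with 25RA (Prtn3, Ltf and S100a8), 2 with 10RA (Ctsg and Ltf), 3 with 1-590 (S100a8, Cebpe and Irf8) and 1 in vector (Camp). Over all protein-coding genes the share with a promoter peak was 47.8% with 25RA, 41.3% with 10RA, 55.2% with 1-590 and 40.5% in vector, so that the members' counts lay below the all-gene share of each library. That share covers all genes, while 9 of the 10 members had CpG-poor promoters (lowest 2 quintiles). The lower shares of such genes are given below. In the 1-1067 set none of the 10 had a promoter peak in any of the 4 libraries, where the share over all genes was 8.52% with 36EQ, 6.96% with 34DN, 9.21% with 1-1067 and 7.44% in vector. No single member had a promoter H2AK119ub peak in more than 2 libraries, and Ltf and S100a8 were those with 2. With the gene body added, 4 members had a peak with 25RA (60.7% of all genes), 3 with 10RA (54.8%), 4 with 1-590 (64%) and 3 in vector (50.9%). In the 1-1067 set these counts were 2 with 36EQ (17%), 1 with 34DN (14.5%), 0 with 1-1067 (17.8%) and 1 in vector (15.6%).

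**Figure D1:**
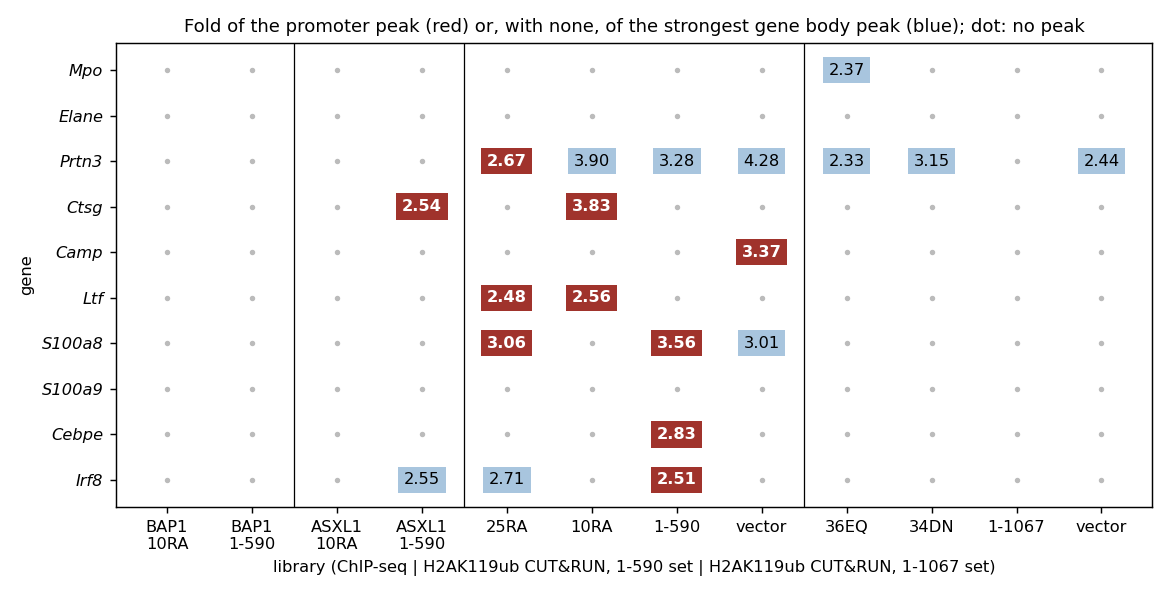
Each row is a gene and each column a library, in 4 blocks from left to right: BAP1 ChIP, ASXL1 ChIP, and H2AK119ub CUT&RUN of the 1-590 set and of the 1-1067 set. Numbers are the authors' fold of the promoter peak on red or, where there is none, of the strongest gene body peak on blue. Prtn3 fills 7 of the 8 H2AK119ub columns while the rows of Elane and S100a9 hold none. The Prtn3 numbers are not all of the same peak. With 25RA the number is of the promoter peak (2.67) and with 1-590 of a peak at the upstream end of the gene (3.28). In the other libraries it is of the downstream peak.

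BAP1 was listed at none of the 10 promoters or gene bodies, with 10RA or with 1-590. The shares of all genes with a BAP1 promoter peak were 0.552% with 10RA and 0.363% with 1-590, and with the gene body added 7.63% and 4.92%, so 0 of 10 lies near the background. ASXL1 had no member peak with 10RA, where 0.455% of genes had a promoter peak and 6.65% one at the promoter or in the body. With 1-590 it had 1 promoter peak, at Ctsg, where the share of all genes was 1.06%. With the gene body added, 2 members had a peak, Ctsg and Irf8, where the share of all genes was 11.4%. Both ASXL1 peaks were weak, with a q of 21.5% at Ctsg and 23.0% at Irf8.

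The 10 promoters were poor in CpG. The ratio of observed to expected CpG in a fixed window around the TSS had a median of 0.176 in the members and 0.575 over all genes. It was lowest at S100a9 (0.0985), Ltf (0.122), Mpo (0.148) and Prtn3 (0.148). S100a8 (0.174), Camp (0.178), Elane (0.217) and Ctsg (0.264) followed, then Cebpe (0.369), and Irf8 stood apart with 0.735. When all genes were divided into quintiles by this ratio, 6 members were in the lowest quintile, 3 in the next and Irf8 in quintile 4. In the lowest quintile a promoter H2AK119ub peak was listed at 7.24% of genes with 25RA, 6.44% with 10RA, 7.06% with 1-590 and 4.35% in vector. The 6 members there had 3 peaks with 25RA, and 1 each with 10RA, 1-590 and vector. In quintile 2 the shares were 22.9%, 18.9%, 24.4% and 14.7% in the same order, and Elane, Ctsg and Cebpe had 0, 1, 1 and 0 peaks. In quintile 4, which holds Irf8, they were 73.3%, 64.3%, 85.4% and 65.6%, and Irf8 had its peak with 1-590 and in no other library.

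**Figure D2:**
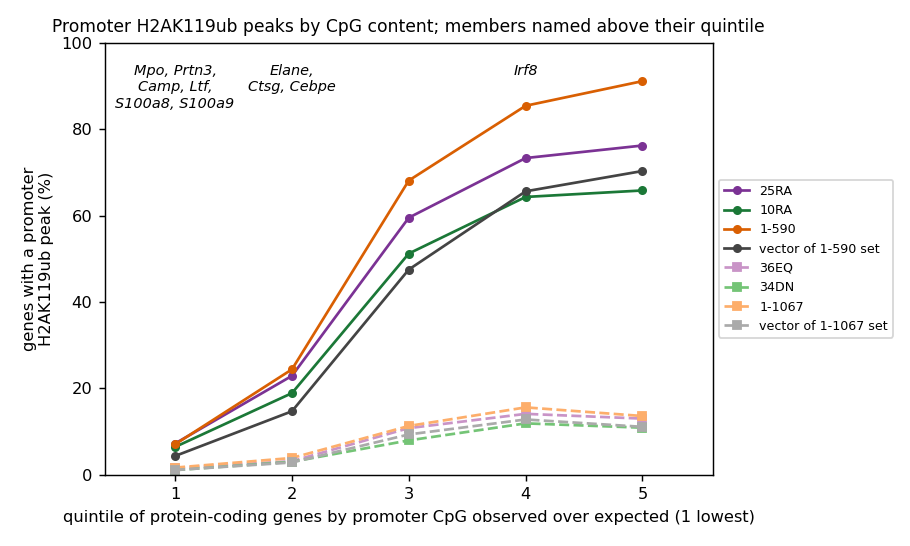
The y axis is the percent of protein-coding genes with a promoter H2AK119ub peak, by quintile of promoter CpG ratio on the x axis, with 1 line per library (solid for the 1-590 set, dashed for the 1-1067 set) and the members named over their quintile. In the 1-590 set the share ran from 4.35% to 7.24% in the lowest quintile and from 65.8% to 91.1% in the highest; 9 of the 10 members sit in the lowest 2 quintiles.

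Prtn3, whose protease is stored in primary granules, carried the most recurrent member peak. The gene lies on chromosome 10 at 79710310 to 79719008 (GRCm39, plus strand), with the canonical TSS at 79715448 and Elane just downstream of it. An H2AK119ub peak in its downstream part was listed in 7 of the 8 H2AK119ub libraries, with summits between 2175 and 2472 bases after the TSS and a median of 2399. The summit fell in exon 4 of 5 in 6 of these libraries and in an intron with 36EQ. It lies just outside the promoter window and counts as gene body. The 300 bases around the median summit are shown because this is the peak listed in the most libraries, chr10:79717697-79717996 on the plus strand, of which 228 bases are coding:
Prtn3: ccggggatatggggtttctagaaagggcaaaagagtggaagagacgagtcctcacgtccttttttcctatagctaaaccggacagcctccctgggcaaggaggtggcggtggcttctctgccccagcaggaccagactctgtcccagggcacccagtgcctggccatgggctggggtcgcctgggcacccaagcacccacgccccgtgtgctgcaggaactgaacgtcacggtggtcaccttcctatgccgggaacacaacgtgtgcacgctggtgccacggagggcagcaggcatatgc
This stretch had 62.0% GC and 14 CpG, and a CpG ratio of 0.486, against 0.148 around the gene's own TSS.

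The summit pileup of this peak was 40 fragments with 25RA (exact Poisson 95% interval 28.6 to 54.5), 38 with 10RA (26.9 to 52.2), 35 with 1-590 (24.4 to 48.7) and 29 in vector (19.4 to 41.6). These intervals, which cover counting error only, all overlapped. In multiples of each library's genome background the summits were 21.5 with 25RA (15.4 to 29.3), 22.1 with 10RA (15.6 to 30.3), 17.0 with 1-590 (11.8 to 23.6) and 32.0 in vector (21.4 to 45.9). Vector was the highest and 1-590 the lowest on that scale, and their intervals still met. The vector library had the lowest genome background of the set, and its part in this order was not tested. The pileup in the 1-1067 set was 17 with 36EQ (9.90 to 27.2), 19 with 34DN (11.4 to 29.7) and 19 in vector (11.4 to 29.7), or 5.98, 7.35 and 6.51 times the genome background. These summits were weaker than those of the 1-590 set, and only that of 34DN had a q of 5% or less (1.94%), against 28.7% in 36EQ and 20.6% in vector. The 1-1067 library listed no peak there. Scaled to the depth of 1-1067, the peaks of 36EQ, 34DN and vector would have had a -log10 p of 3.06, 5.31 and 3.34, all still past the listing limit of 3.

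**Figure D3:**
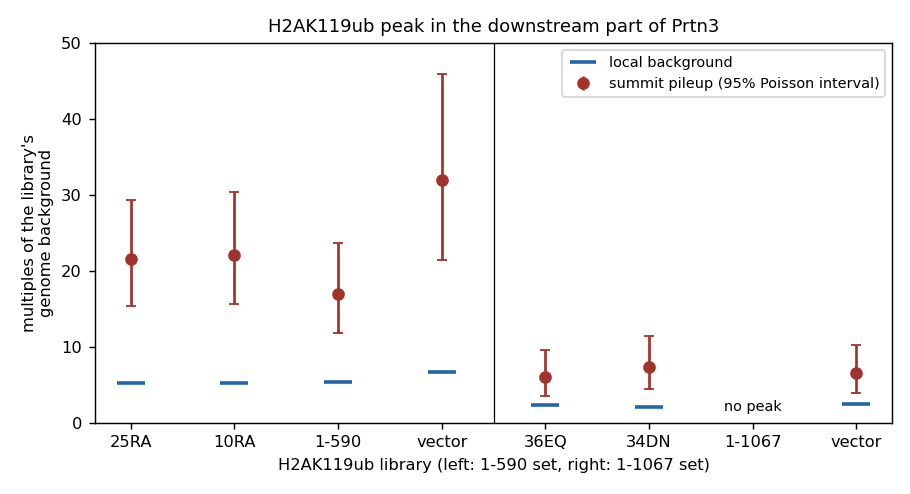
The y axis gives the summit pileup of the downstream Prtn3 peak (red points, with exact Poisson 95% intervals) and its local background (blue dashes), in multiples of the genome background of each H2AK119ub library on the x axis. Summits lie between 17.0 and 32.0 in the 1-590 set and between 5.98 and 7.35 in the 1-1067 set, where 1-1067 has no peak.

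A second H2AK119ub peak met the upstream end of the Prtn3 gene, where a longer transcript starts next to the promoter of Plppr3, and that promoter holds the same peak. It was listed in all 4 libraries of the 1-590 set, with folds of 3.77 with 25RA, 3.69 with 10RA, 3.28 with 1-590 and 3.46 in vector, and in none of the 1-1067 set. The promoter peak of Prtn3 itself was listed with 25RA alone, at 1743 bases after the TSS in an intron, with a fold of 2.67 and 27 fragments (17.8 to 39.3). At vector depth it would have had a -log10 p of 3.48, just past the limit. With every annotated coding TSS in place of the canonical one, Prtn3 was listed at the promoter with 25RA, 10RA, 1-590 and vector alike.

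Of the other primary granule genes, Elane and Mpo showed little. Elane, on chromosome 10 at 79722081 to 79724051, had no peak in any library at its promoter or body, and the downstream Prtn3 peak was its nearest H2AK119ub peak, 3889 to 4245 bases from its TSS, in all but the 1-1067 library, where the nearest peak lay 22.1 kb away. On its other side, the promoter of Cfd, which encodes complement factor D, had a peak with 25RA (fold 2.60) and 10RA (2.46) and not with 1-590 or vector. Mpo, on chromosome 11 at 87684407 to 87695239, had a single peak, in an intron with 36EQ, of 15 fragments (8.40 to 24.7), a fold of 2.37 and a q of 31.5%. In that list 2.27% of peaks had a lower fold.

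Ctsg, on chromosome 14 at 56337338 to 56340031 (minus strand), was the one gene with promoter peaks for both ASXL1 and H2AK119ub. The ASXL1 peak with 1-590 spanned the TSS, with its summit 39 bases inside the gene, 16 fragments (9.15 to 26.0) and a fold of 2.54. The H2AK119ub peak with 10RA lay in an intron with its summit 776 bases after the TSS, 16 fragments (9.15 to 26.0), a fold of 3.83 and a q of 0.0420%. The peaks do not overlap and come from libraries of different constructs. In the H2AK119ub library of 1-590 the nearest peak lay 17156 bases from the TSS. Of all genes, 11 had exactly this pattern over the 12 libraries. The 250 bases before the TSS, whose 3′ end the ASXL1 peak covers, are chr14:56340032-56340281 on the minus strand, with motif matches in capitals:
Ctsg: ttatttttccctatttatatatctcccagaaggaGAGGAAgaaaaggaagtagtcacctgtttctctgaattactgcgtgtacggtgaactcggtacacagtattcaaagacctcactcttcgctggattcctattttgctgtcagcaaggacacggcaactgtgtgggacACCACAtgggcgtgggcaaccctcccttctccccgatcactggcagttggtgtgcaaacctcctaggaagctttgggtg

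The secondary granule genes Camp and Ltf differed in which library held their peak. Camp, on chromosome 9 at 109676442 to 109678685 (minus strand), had its only promoter peak in vector, with the summit at position -639 from the TSS, 9 fragments (4.12 to 17.1), a fold of 3.37 and a q of 3.12%. The 3 construct libraries were deeper, and at their depth a peak of the same proportions would have had a -log10 p of 7.23 with 25RA, 7.03 with 10RA and 7.90 with 1-590. Since a listed peak that is scaled up stays past the limit, these values could not show an effect of depth. The nearest H2AK119ub peaks of the 3 construct libraries lay 9965, 9922 and 4375 bases from the TSS. The peak rests on 9 fragments, and with p of 1e-05 or less it is not listed. The whole peak is chr9:109679211-109679412, shown on the minus strand because it is the one promoter peak of the 10 genes found in vector and in no construct library:
Camp: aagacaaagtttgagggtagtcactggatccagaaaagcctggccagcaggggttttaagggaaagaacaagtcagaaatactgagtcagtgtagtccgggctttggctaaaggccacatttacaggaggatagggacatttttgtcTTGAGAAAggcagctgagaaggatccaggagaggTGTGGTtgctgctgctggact

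Ltf, on chromosome 9 at 110848339 to 110871835 (plus strand), had peaks at 2 places with both 25RA and 10RA. At the promoter the summits lay at -113 from the TSS with 25RA and at -71 with 10RA, with 15 (8.40 to 24.7) and 13 (6.92 to 22.2) fragments and folds of 2.48 and 2.56. Near the far end of the gene, in an intron 22536 and 22539 bases after the TSS, a stronger peak had 29 fragments with 25RA (19.4 to 41.6) and 24 with 10RA (15.4 to 35.7). Neither place was listed with 1-590 or in vector. Past the end of the gene a peak stood 29526 bases after the TSS with 25RA (27 fragments, 17.8 to 39.3, fold 2.73). At 27179 and 27198 bases overlapping peaks stood with 1-590 (29 fragments, 19.4 to 41.6, fold 3.47) and in vector (21 fragments, 13.0 to 32.1, fold 3.53), a place listed neither with 25RA nor with 10RA. Scaled up to the depth of 1-590, the promoter and intron peaks with 25RA and 10RA would have had -log10 p from 4.21 to 8.24. A listed peak that is scaled up stays past the limit, so these values could not show an effect of depth. Scaled down to vector depth the promoter peaks would have fallen short of the limit, with 2.21 and 2.52. The intron peaks would have stayed past it, with 3.95 and 4.49. The promoter peaks had a q of 4.87% with 25RA and 6.90% with 10RA. The 250 bases before the TSS are chr9:110848089-110848338 on the plus strand, printed because both summits fall in them:
Ltf: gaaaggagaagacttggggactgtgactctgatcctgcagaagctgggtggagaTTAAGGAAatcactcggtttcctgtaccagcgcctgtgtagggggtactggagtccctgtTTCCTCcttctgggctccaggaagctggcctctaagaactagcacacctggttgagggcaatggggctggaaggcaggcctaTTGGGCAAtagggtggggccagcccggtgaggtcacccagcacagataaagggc

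Of the calprotectin genes, S100a8 had peaks and S100a9 did not. S100a8, on chromosome 3 at 90567118 to 90578128 (plus strand), had an H2AK119ub peak across the TSS, with its summit 239 bases after it with 25RA and 242 with 1-590, in an intron of the canonical transcript. The pileups were 25 fragments with 25RA (16.2 to 36.9) and 31 with 1-590 (21.1 to 44.0), or 13.4 and 15.1 times the genome background, with overlapping intervals. Their folds were 3.06 and 3.56. With 10RA the nearest peak lay 33.1 kb from the TSS. In vector a peak of 11 fragments (5.49 to 19.7) and a fold of 3.01 lay at -2929 from the TSS, inside a longer transcript. Scaled to vector depth the 2 promoter peaks would have had a -log10 p of 3.93 and 5.33, and to the depth of 10RA 6.47 and 8.54. A promoter peak in 25RA and 1-590 and in no other library was found at 733 genes in all, or 3.37% of genes. S100a9, on chromosome 3 at 90599931 to 90603071, had as its closest peak one of 1-1067, 3.4 kb from the TSS and past the end of the gene. The S100a8 sequence just before the TSS, in which both peaks begin, is chr3:90576035-90576284 on the plus strand:
S100a8: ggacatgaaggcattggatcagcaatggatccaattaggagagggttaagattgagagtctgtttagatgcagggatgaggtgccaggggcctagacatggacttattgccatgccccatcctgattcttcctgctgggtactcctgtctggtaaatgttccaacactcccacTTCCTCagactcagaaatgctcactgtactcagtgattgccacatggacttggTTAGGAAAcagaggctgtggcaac

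The transcription factor genes Cebpe and Irf8 had an H2AK119ub promoter peak with 1-590 and in no other library. Cebpe, on chromosome 14 at 54947817 to 54949631 (minus strand), had the largest promoter pileup of the members, 40 fragments (28.6 to 54.5), or 19.4 times the genome background, and a fold of 2.83. The peak stood on a local background of 6.55 times the genome background, where the median promoter peak of that library had 2.64 times. Its summit lay at -1988 from the TSS and its near edge at 1870 bases, so it is the peak just inside the window. Just outside the window lay the downstream Prtn3 peaks, with near edges from 2017 bases, and a Cebpe peak with 34DN, at -2230 from the TSS with 17 fragments (9.90 to 27.2) and a near edge 2164 bases away, and the 2 Cebpe peaks overlap. At vector depth the 1-590 peak would have had a -log10 p of 4.81, and at those of 25RA and 10RA 8.09 and 7.43. The nearest peak that any of these 3 libraries listed lay 10.8 kb from the TSS, with 25RA. The 300 bases around the 1-590 summit are chr14:54951469-54951768, shown on the minus strand:
Cebpe: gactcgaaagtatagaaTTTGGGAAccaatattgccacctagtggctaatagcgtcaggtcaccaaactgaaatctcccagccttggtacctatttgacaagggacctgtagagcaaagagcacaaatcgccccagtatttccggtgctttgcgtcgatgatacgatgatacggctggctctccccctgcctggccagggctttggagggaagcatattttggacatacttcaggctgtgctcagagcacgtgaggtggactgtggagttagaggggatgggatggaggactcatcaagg

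Irf8, on chromosome 8 at 121463096 to 121485659 (plus strand), had a weaker promoter peak, with 20 fragments (12.2 to 30.9), a fold of 2.51 and a q of 1.17%, at -1466 from the TSS. In the 1-590 list 9.75% of peaks had a lower fold. At vector depth its -log10 p would have been 2.71, short of the limit, and at the depths of 25RA and 10RA 4.17 and 4.11. With 25RA no promoter peak was listed, and the gene had 2 intron peaks, 14522 and 17457 bases after the TSS. They had 17 fragments each (9.90 to 27.2) and folds of 2.65 and 2.71. At vector depth their -log10 p would have been 2.59 and 2.66, also short of the limit. The ASXL1 peak with 1-590 lay in an exon, 21188 bases after the TSS, with 15 fragments (8.40 to 24.7) and a fold of 2.55. These 4 places at Irf8 do not coincide, and no H2AK119ub peak of 10RA or of vector in the 1-590 set lay within 56.6 kb of its TSS. The 300 bases around the promoter summit are chr8:121461481-121461780 on the plus strand:
Irf8: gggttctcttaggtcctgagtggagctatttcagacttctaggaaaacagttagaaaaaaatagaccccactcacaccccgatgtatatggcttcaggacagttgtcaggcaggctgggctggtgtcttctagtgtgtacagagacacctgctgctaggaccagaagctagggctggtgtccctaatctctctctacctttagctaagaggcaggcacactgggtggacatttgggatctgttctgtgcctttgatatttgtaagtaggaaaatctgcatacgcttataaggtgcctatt

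**Figure D4:**
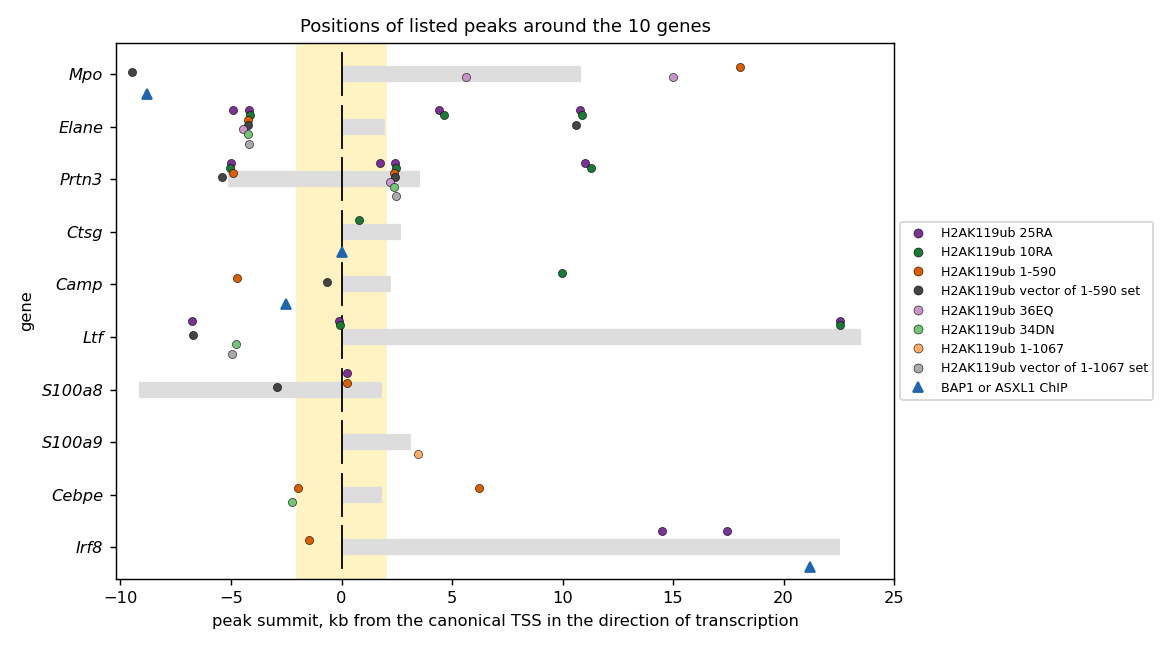
Each row is a gene, with the annotated gene as a grey bar, the canonical TSS as a black line and the 2 kb promoter window shaded; the x axis is the summit's distance from the TSS in kb. Circles are H2AK119ub peaks by library and triangles BAP1 or ASXL1 peaks, and the column of circles in the downstream part of Prtn3 is shared by 7 libraries and drawn again upstream of its neighbour Elane.

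The printed sequences were searched on both strands for short forms of motifs bound by regulators of this lineage: GAGGAA for PU.1, TTNNGNAA for C/EBP factors, the paired half-site for IRF factors and TGTGGT for RUNX1. No 2 matches overlapped. Upstream of the TSS, Ctsg held 1 GAGGAA and 1 TGTGGT, Ltf 1 GAGGAA and 2 TTNNGNAA, and S100a8 1 GAGGAA and 1 TTNNGNAA. Over the same 250 bases of all genes, GAGGAA was found in 22.9%, TTNNGNAA in 36.9% and TGTGGT in 13% of promoters, and the IRF pair in 3.33%. The Camp peak held 1 TTNNGNAA and 1 TGTGGT, which 21.8% and 14.5% of 202-base windows around H2AK119ub summits hold. The Cebpe window held 1 TTNNGNAA, found in 32.1% of 300-base windows around such summits, and the Irf8 and Prtn3 windows held none of the 4 motifs. In windows of that length GAGGAA was found in 29.5%, TGTGGT in 20.6% and the IRF pair in 2.1%. These matches are descriptions of letters.

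Within the 1-590 set, the comparison of each construct with vector asks how the mark differs with each ASXL1 (1-590) form at these genes. With 25RA, 3 members had a promoter peak that vector lacked (Prtn3, Ltf and S100a8; 14% of all genes) and 1 had a peak in vector alone (Camp; 6.59%). With 10RA, 2 members had one that vector lacked (Ctsg and Ltf; 11.1%), and Camp was again alone in vector (10.2%). With 1-590, 3 members had one that vector lacked (S100a8, Cebpe and Irf8; 17.8%) and Camp was alone in vector (3.03%). These 3 comparisons share the vector library. Out of 10 members the counts lay above these shares, except for Camp in vector against 10RA (1 of 10 beside 10.2%). None of these differences was tested. The shares cover all genes, while 9 of the 10 members are in the lowest 2 CpG quintiles. The counts are not a result about these genes as a group. Of the 8 promoter peaks of the constructs, 5 would have been past the limit at vector depth and 3 would not: those of Ltf with 25RA and 10RA and that of Irf8 with 1-590.

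**Figure D5:**
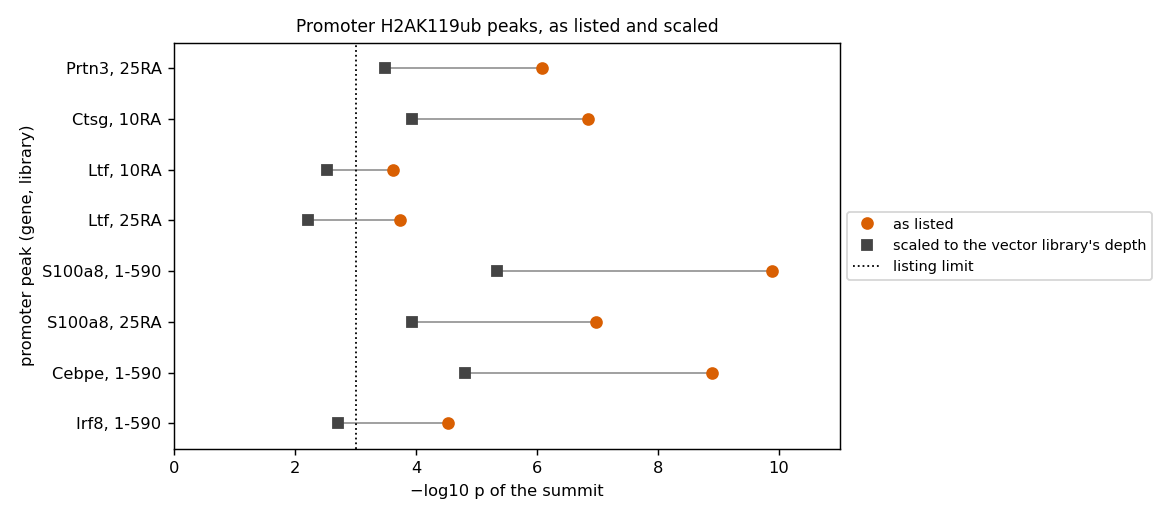
Each row is a promoter H2AK119ub peak of a member in a construct library of the 1-590 set; the x axis is its -log10 p as listed (orange circles) and after its pileup and background were scaled to the depth of the vector library (dark squares), with the listing limit at 3 dotted. The squares of Ltf (2.21 and 2.52) and Irf8 (2.71) fall short of the limit and those of Prtn3, Ctsg, S100a8 and Cebpe lie past it.

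Both altered forms, 25RA and 10RA, were then set against 1-590 itself. Between 25RA and 1-590, S100a8 was shared, 2 members had a peak with 25RA alone (Prtn3 and Ltf; 5.53% of all genes) and 2 with 1-590 alone (Cebpe and Irf8; 12.9%). Between 10RA and 1-590 no member was shared, 2 had a peak with 10RA alone (Ctsg and Ltf; 4.53%) and 3 with 1-590 alone (S100a8, Cebpe and Irf8; 18.4%). Genome backgrounds of these 3 libraries were close, from 1.72 to 2.06, with 1-590 the highest. The promoter peaks with 1-590 alone would have been past the limit at the lower depth of the library that lacked them. Those with 25RA or 10RA alone were scaled up to 1-590, where a listed peak stays past the limit. That scaling therefore could not show an effect of depth. Where no peak was listed the level of the mark is unknown, since only places above their local background are given.

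The same promoter comparisons in the 1-1067 set gave no member in either direction. Against vector, 0 members were alone in either direction for 36EQ (6.02% of all genes with 36EQ alone and 4.94% in vector alone), for 34DN (4.81% and 5.29%) and for 1-1067 (6.51% and 4.74%). Against 1-1067 the same held for 36EQ (5.27% with 36EQ alone and 5.96% with 1-1067 alone) and for 34DN (4.27% and 6.53%). With these shares 0 of 10 is near the background. In the gene body, Prtn3 was listed with 36EQ and 34DN and not with 1-1067, and Mpo with 36EQ alone. For the ChIP libraries, BAP1 gave 0 members with 10RA alone (0.492% of all genes) and 0 with 1-590 alone (0.304%), and ASXL1 gave 0 with 10RA alone (0.386%) and 1, Ctsg, with 1-590 alone (0.994%). Scaled to the lower depth of the 10RA library, the ASXL1 peak at Ctsg would have had a -log10 p of 3.03 and the one at Irf8 2.74, at and below the limit.

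Other genes of the lineage were counted from a list of 44. Of 15 further granule and neutrophil protein genes, a promoter H2AK119ub peak stood at 4 with 25RA, 2 with 10RA, 4 with 1-590 and 2 in vector. Those with 1-590 were Igsf6 (fold 2.95), Pglyrp1 (2.77), which encodes a peptidoglycan-binding granule protein, the leukotriene B4 receptor gene Ltb4r1 (2.40) and the gelatinase gene Mmp9 (1.85). Of 15 surface receptor genes, 5 had one with 25RA, 4 with 10RA, 7 with 1-590 and 4 in vector. The GM-CSF receptor chain genes Csf2ra (5.70) and Csf2rb (5.12) had the largest folds with 1-590, followed by the lipopolysaccharide co-receptor gene Cd14 (3.81) and the chemokine receptor gene Cxcr2 (3.13). Like the members, these groups had CpG-poor promoters, with median ratios of 0.146 and 0.175. All 15 granule genes and 14 of the 15 receptor genes were in the lowest 2 quintiles. In quintiles 1 and 2 the shares of all genes were 7.24% and 22.9% with 25RA and 6.44% and 18.9% with 10RA. They were 7.06% and 24.4% with 1-590 and 4.35% and 14.7% in vector. Whether the counts differ from these shares was not tested.

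The 14 transcription regulator genes of the lineage had a median CpG ratio of 0.696, and ranged from 0.310 at Runx1 to 1.01 at Cebpb. They lay in quintiles 2, 3 and 5, with 4 in the lowest 2 quintiles. A promoter peak stood at 11 with 25RA, 10 with 10RA, all 14 with 1-590 and 9 in vector. In the same order, the shares of all genes were 22.9%, 18.9%, 24.4% and 14.7% in quintile 2. They were 59.5%, 51.2%, 68.1% and 47.5% in quintile 3, and 76.2%, 65.8%, 91.1% and 70.3% in quintile 5. Whether the counts differ from these shares was not tested. Folds with 1-590 were largest at the immediate early gene Egr1 (5.30), at Spi1 (4.82), which encodes PU.1, and at Id2 (4.47), Klf4 (3.51), Irf1 (3.45) and Gfi1b (3.32). Over all 44 genes the counts were 20 with 25RA, 16 with 10RA, 25 with 1-590 and 15 in vector, beside the shares of 40.5% to 55.2% of all genes given above. Against vector, 7 of the 44 had a peak with 25RA alone and 2 in vector alone (14% and 6.59% of all genes), and 6 had one with 10RA alone and 5 in vector alone (11.1% and 10.2%). With 1-590 alone there were 10, Gfi1b, Cxcr2, Fcgr1, Irf4, Igsf6 and Fcgr3 leading by fold, and in vector alone 0 (17.8% and 3.03% of all genes). Against 1-590, 2 had a peak with 25RA alone and 7 with 1-590 alone (5.53% and 12.9%), while 2 had one with 10RA alone (Itgam and Cfd) and 11 with 1-590 alone (4.53% and 18.4%). Nothing particular to these genes is read from these counts. Of the 1-1067 set, 3, 3, 3 and 2 of the 44 had one with 36EQ, 34DN, 1-1067 and vector (8.52%, 6.96%, 9.21% and 7.44% of all genes). Egr1 was listed in all 4, with folds from 3.45 to 5.21. None of the 44 had a BAP1 or ASXL1 promoter peak, where the shares of all genes were 0.363% to 1.06%.

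Peak lists hold no RNA, so the labelled cell type could be looked at only as chromatin at marker genes. Of 7 stem and progenitor markers, 4 had a promoter H2AK119ub peak with 25RA, 5 with 10RA, 6 with 1-590 and 5 in vector (47.8%, 41.3%, 55.2% and 40.5% of all genes), Kit, Cd34 and Flt3 in all 4. Of 5 erythroid markers 2, 1, 2 and 2 did, in that order, and of 6 lymphoid markers 3, 1, 1 and 1. The 3 marker lists differed in median CpG ratio, with 0.663, 0.229 and 0.329, so their counts are not compared with each other. For the 1-1067 set 0 to 2 of the stem and progenitor, 0 or 1 of the erythroid and 0 or 1 of the lymphoid markers had one (6.96% to 9.21% of all genes). Whether the mix of cells differed between libraries was not tested.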

How the data were processed

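Peak lists in narrowPeak format were deposited for 12 libraries, 1 per condition. The authors' tools, per the submitters' processing notes, include MACS3 3.0.3, Picard, SAMtools, Bowtie2 2.5.4 and fastp 0.24.0, on mm39. Use of a control library is not given in the sources used here. E. coli spike-in reads served to normalize CUT&RUN, per the labels. Whether fragments were subsampled for this before peak calling is not given in the sources used here, so backgrounds, multiples of them and rescaled p describe the fragments that entered peak calling, which may differ from sequencing depth. The deposited fold is a ratio at the summit, pileup plus 1 over local background plus 1, the deposited -log10 p and -log10 q belong to each list alone, and the deposited score follows -log10 p. Fold was used to describe and rank peaks within a list.

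Autosomal, X and Y peaks were kept, with coordinates counted from 1 in GRCm39. Genes were protein-coding genes of the GENCODE annotation, and body peaks are those in the gene that do not meet the promoter. An overlap of 1 base counted. Whole summit pileups and local backgrounds were solved from fold and p under a Poisson model, within a tolerance of 0.001 in -log10 p for all but 2 of the peaks. The lowest background of a list is its genome background. For another library's depth, pileup (rounded to a whole number) and background were multiplied by the ratio of genome backgrounds and p recomputed, with no random draw. A rescaled -log10 p above 3 counts as listed. Recovery and overlap were tested on simulated data. Python 3.11.15, pandas 2.3.3 and scipy 1.17.1 were used.

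With 1 library per group no test was made. The members, lists and motifs were chosen with earlier results of these data known. Named genes are all members, genes whose promoter meets the same peak, and at most 6 of the related genes per count, by fold. Genes named beside the flanks of a member, and those listed in only 1 library of a pair, were named after their values were seen. The rule also allowed naming genes with the same pattern as a member with promoter peaks in 3 or more libraries, and no member had that many. The 7 alternatives are in the closing section.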

Additional observations from a re-analysis of the deposited data

How the results depend on the processing

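No paired analysis was possible because each group has 1 library and no test was made. Below, only counts that changed by over 1.5 times, or to or from 0, are given. Smaller changes are left out, such as the fall of 25RA and 1-590 from 3 to 2 members at the lowest depth of the batch. Requiring the summit inside the window moved none of the 48 counts by over 1.5 times. With any annotated coding TSS, vector of the 1-590 set had 2 members (Camp and Prtn3), and 25RA against 1-590 had 1 with 25RA alone (Ltf). With promoters of 1 kb, 1-590 had 1 member (S100a8), 1-590 alone against vector and against 10RA became 1 and against 25RA 0, 25RA alone against 1-590 became 1, and promoter or body with 1-590 became 2. With 5 kb, promoter counts were 4 with 10RA (47.6% of all genes), 6 with 1-590 (59.8%) and 4 in vector (45.2%). They were 2 with 36EQ (11.2%), 4 with 34DN (9.27%), 1 with 1-1067 (11.8%) and 3 in its vector (9.63%). BAP1 with 10RA had 1 (Camp, beside 1.78% of all genes). At that width the downstream Prtn3 peak met the promoters of both Prtn3 and Elane, so that 1 peak counted for 2 members. Counts alone then became 1 with 25RA against vector and against 1-590, 0 in vector against 1-590 and 2 in vector against 10RA. They became 1 for 34DN and 1 for 1-1067 against vector, 3 for vector against 1-1067, 1 for vector against 36EQ, 2 for 36EQ and 4 for 34DN against 1-1067, 1 for 1-1067 against each, and 1 for BAP1 with 10RA. Promoter or body became 1 for BAP1 with 10RA, 4 with 34DN, 1 with 1-1067 and 3 in its vector. With q of 5% or less, 10RA had 1 (Ctsg), also alone against vector and against 1-590, ASXL1 with 1-590 had 0, also against 10RA, and promoter or body was 0 for ASXL1 with 1-590, 0 with 36EQ and 0 in vector of the 1-1067 set. With p of 1e-05 or less, 10RA had 1 (Ctsg), also alone against vector and against 1-590, and vector had 0, also against each construct. There 25RA alone against 1-590 became 1, 1-590 alone against 25RA became 1, and ASXL1 with 1-590 had 0, also against 10RA. Promoter or body became 0 for ASXL1 with 1-590, 1 in vector of the 1-590 set, 0 with 36EQ and 0 in vector of the 1-1067 set. Scaled to the lowest depth of each batch, 10RA had 1 (Ctsg), also alone against vector and against 1-590, 25RA alone against 1-590 became 1 (Prtn3), 1-590 alone against 25RA became 1 (Cebpe), and promoter or body became 1 for ASXL1 with 1-590 and 1 with 36EQ. The cause of these changes was not tested.

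At the genome background, a place needed 7 fragments to be listed with 25RA or 10RA, 8 with 1-590 and 5 in vector.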

Other observations

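Some peaks within 10 kb of a member gene, outside both gene and promoter, belong to no comparison above. Upstream of Ltf, overlapping H2AK119ub peaks had their summits at -6746 from the TSS with 25RA (18 fragments, fold 3.40) and at -6723 in vector (8 fragments, fold 2.83). Others lay at -4776 with 34DN (12 fragments, fold 2.82) and at -4952 in vector of the 1-1067 set (14 fragments, fold 2.56). Before Mpo, an ASXL1 peak with 1-590 lay at -8818 (18 fragments, fold 3.01, q of 4.84%), and an H2AK119ub peak in vector of the 1-590 set at -9468 (13 fragments, fold 4.09). Before Camp, a BAP1 peak with 10RA lay at -2508 (16 fragments, fold 2.63, q of 23.7%), the closest BAP1 peak to any of the 10 genes. Past the end of Cebpe, 6216 bases after its TSS, a 1-590 H2AK119ub peak of 38 fragments stood on a local background of 8.91 times the genome background, with a fold of 2.02. At the promoter of S100a7a, upstream of S100a8, H2AK119ub peaks were listed with 25RA (fold 2.55), 1-590 (2.81) and 1-1067 (2.74).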
